A study of Mus musculus with 141 samples.

Results

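Among the 24423 genes counted in each library, 10 genes that are used to recognise endothelium were followed across 3 tissues of Collaborative Cross (CC) mice. The genes were taken by symbol from a fixed list of general endothelial genes (Pecam1, Cdh5, Kdr, Tek, Clec14a, Emcn) and of genes used to tell specialised vessels apart (Ehd3, Stab1, Stab2, Lyve1), and all 10 were present. Each of the 47 CC strains, recombinant inbred lines that mix the genomes of several founder strains, gave a single male mouse, whose whole liver, lung and kidney were sequenced as total RNA, so that each tissue has 47 libraries. The mice were 8 to 12 weeks old, ate the NTP 2000 diet and spent 6 hours per day on weekdays over 2 weeks in chambers supplied with clean air. All were anaesthetised with nembutal before sacrifice. No group received any other agent and no strain carried an engineered allele, so the groups compared were the 3 tissues and the strains. With 1 mouse per strain, the spread over strains holds differences between genotypes, between individual mice and between libraries, with any sequencing batch, which cannot be told apart.

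Endothelial cells line every vessel, and their junctions, growth factor receptors and surface glycoproteins are shared across organs. Their other functions differ by organ: lung alveoli are wrapped in continuous capillaries, kidney glomeruli in fenestrated ones, and liver sinusoids in discontinuous endothelium that clears waste molecules from blood through scavenger receptors. In whole tissue, a lower level of an endothelial RNA can come from fewer endothelial cells or from less of that RNA in each cell, and these cannot be told apart here.

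The total counts per library ran from 1738046 to 42158454 with a median of 9043226, and a count of 3, taken as the detection floor, corresponded to 0.288 CPM (counts-per-million) in the median liver library, 0.321 in lung and 0.364 in kidney. The marker genes of each tissue matched the labels. The summed level of 6 liver markers had a median of 93930 TPM (transcripts-per-million) in liver, 170.5 in lung and 3617 in kidney. The 7 lung epithelial markers reached 84150 TPM in lung and 63.4 in liver, and the 9 kidney epithelial markers reached 91190 TPM in kidney and 61.3 in liver. These are medians, and some single libraries held more of another tissue's markers. Liver markers summed to 2016 TPM in the lung of CC010, and kidney markers to 1628 and 884.5 TPM in the livers of CC035 and CC036. The kidney library of strain CC020 stood apart in Stab1 and is described below with values with and without it.

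Levels between genes were compared in TPM, which is per length of transcript, and levels between tissues in CPM after TMM scaling (trimmed mean of M-values, which sets the median ratio of most genes to about 1). Differences between tissues were tested with limma-voom across 12127 genes with the strain as a block. A gene was called different when the Benjamini-Hochberg adjusted p (q) was at most 0.1 and the log2 fold change was at least 1 in size. Among all genes tested, 55% were called between liver and lung, 36.4% between liver and kidney and 46.1% between lung and kidney, so a call by itself was common. The 9 tested genes gave 8 calls between liver and lung, of which 6 were higher in lung and 2 higher in liver. They gave 6 calls between liver and kidney, 5 of them higher in liver, and 7 calls between lung and kidney, 6 of them higher in lung. Over all genes the shares called higher in lung were 31% against liver and 25.5% against kidney. The shares called higher in liver were 23.9% against lung and 15.6% against kidney, and those called higher in kidney were 20.8% against liver and 20.6% against lung. Leaving out strain CC020 changed none of these counts.

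**Figure D1:**
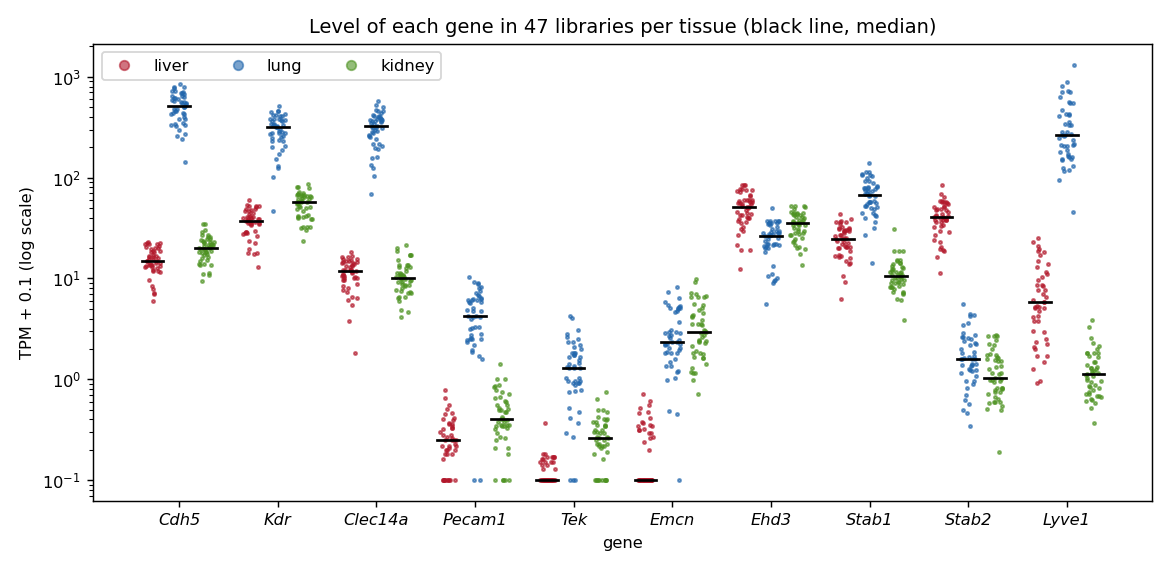
Level of the 10 genes, as TPM plus 0.1 on a log axis, with 1 point per library, 47 libraries per tissue and a black line at each median. Cdh5, Kdr, Clec14a and Lyve1 are highest in lung, Stab2 is high in liver alone, and Pecam1, Tek and Emcn have lower medians than Cdh5 and Kdr in every tissue.

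Cdh5 (VE-cadherin, the cadherin of endothelial adherens junctions; chr8:106625525-106668402, + strand, build NCBIM37) had a TPM of 143.65 to 846.34 with a median of 513.6 in lung. In liver it ran from 5.93 to 23.05 TPM with a median of 14.77, and in kidney from 9.4 to 34.61 TPM with a median of 20.05. Every lung library lay above every liver and kidney library, while liver and kidney overlapped. After TMM scaling Cdh5 averaged 453 ± 85.7 CPM (SD, n = 47) in lung, 38.3 ± 8.42 in livers and 26.0 ± 6.37 in kidneys. The difference on the log2 scale was 4.15 (SE 0.06, limma-voom q = 6.2e-85) for lung over kidney and -3.59 (SE 0.06, q = 9.4e-76) for liver minus lung. The liver minus kidney difference of 0.56 (SE 0.07, q = 4e-13) was under the size required for a call, and it was -0.39 under scaling by total counts, where the median of all genes was -0.95.

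Kdr (VEGF receptor 2, the main signalling receptor for vascular endothelial growth factor A; chr5:76328852-76374483, - strand) was spread less unevenly over the tissues. Its TPM ran from 46.16 to 516.16 with a median of 317.2 in lung, from 12.98 to 60.28 with a median of 37.04 in liver, and from 23.14 to 86.21 with a median of 56.64 in kidney. The ranges overlapped on this scale, but in TMM-scaled CPM all lung libraries, at 357 ± 58.0 (SD, n = 47), lay above those of liver at 123.5 ± 18.7 and kidney at 94.98 ± 11.2. On the log2 scale the difference was -1.53 (SE 0.04, limma-voom q = 1.5e-56) for liver minus lung and 1.90 (SE 0.04, q = 1.4e-66) for lung minus kidney, and 0.37 (SE 0.04, q = 1.9e-12) for liver minus kidney, which was not called.

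Clec14a (a C-type lectin family glycoprotein of the endothelial surface; chr12:59365707-59370245, - strand) followed Cdh5. It ran from 69.06 to 569.16 TPM with a median of 327.8 in lung, from 1.73 to 18.04 with a median of 11.83 in liver, and from 4 to 21.44 with a median of 9.96 in kidney. Lung was separate from the other tissues and liver overlapped with kidney. Lung minus kidney gave a log2 fold change of 4.35 (SE 0.05, limma-voom q = 8.9e-92), liver minus lung -3.29 (SE 0.05, q = 6.3e-78) and liver minus kidney 1.06 (SE 0.06, q = 2.8e-33). This last call was at the edge of the size required and held in 7 of 13 other settings, with values from 0.10 to 1.08, the lowest of them on the TPM scales and 0.12 (q = 0.48) under total counts.

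Ehd3 (an EH-domain ATPase of endosomal recycling, known in kidney as a gene of glomerular endothelium; chr17:74154181-74181433, + strand) had its highest levels in liver. It ran from 12.24 to 85.13 TPM with a median of 51.4 in liver, from 13.54 to 52.55 with a median of 35.1 in kidney, and from 5.51 to 49.68 with a median of 26.52 in lung. In TMM-scaled CPM the liver libraries, at 113 ± 26.7 (SD, n = 47), all lay above those of kidney at 40.1 ± 6.78 and lung at 20 ± 4.90. The log2 fold change was 2.49 (SE 0.06, limma-voom q = 1.1e-60) for liver minus lung and 1.48 (SE 0.06, q = 1.6e-42) for liver minus kidney. The lung minus kidney difference of -1.01 (SE 0.06, q = 1.2e-27) was at the edge of the size required and was not called under 7 of the other settings tried. The liver minus kidney call of Ehd3 held in 10 of 13 settings and the liver minus lung call in 12 of 13.

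Stab1 and Stab2 encode stabilin 1 and stabilin 2, large scavenger receptors of liver sinusoidal endothelium that take up modified lipoproteins and other waste. Of the pair, stabilin 2 is the receptor that takes up hyaluronan. Stab2 (chr10:86303943-86470770, - strand) ran from 11.24 to 83.55 TPM with a median of 40.21 in liver. It ran from 0.24 to 5.43 TPM with a median of 1.48 in lung and from 0.09 to 2.63 with a median of 0.93 in kidney. No liver library overlapped with a library of another tissue. The log2 fold change of Stab2 was 5.98 (SE 0.16, limma-voom q = 6.2e-58) for liver minus lung and 6.11 (SE 0.14, q = 2.7e-63) for liver minus kidney, and 0.13 (SE 0.18, q = 0.49) for lung minus kidney. In lung the liver markers summed to 170.5 TPM against 93930 in liver, and the correlation of Stab2 in lung with them over 47 strains was r = 0.179 (permutation p = 0.23, q = 0.52, rho = 0.169, r = 0.184 without the 2 strains farthest from the median). The annotation places 6 short genes on the opposite strand within Stab2 and Nt5dc2 on the opposite strand at Stab1, and whether counting used the strand is not given in the sources used here.

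Stab1 (chr14:31952199-31981827, - strand) was not restricted to liver. It ran from 14.26 to 137.99 TPM with a median of 67.6 in lung, from 6.1 to 43.74 with a median of 24.78 in liver, and from 3.77 to 31.03 with a median of 10.47 in kidney. All 3 tissues overlapped in TPM. In TMM-scaled CPM liver averaged 121 ± 23.8 and lung 121.5 ± 27.5 (SD, n = 47), with a log2 difference of -0.02 (SE 0.06, limma-voom q = 0.76), and kidney was lower at 28.8 ± 10.2. The log2 fold change was 2.09 (SE 0.07, q = 7e-52) for liver minus kidney and 2.11 (SE 0.06, q = 7.5e-54) for lung minus kidney. The liver and lung comparison depended on the scaling: it was -1.36 under total counts, with the median of all genes at -1.43, and -1.48 on log2(TPM + 0.1), with the median of all genes at -1.52.

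Lyve1 (a hyaluronan receptor of lymphatic and liver sinusoidal endothelium that some macrophages also carry; chr7:117994121-118006467, - strand) was highest in lung. It ran from 45.75 to 1316.96 TPM with a median of 262.4 in lung, from 0.82 to 25.1 with a median of 5.7 in liver, and from 0.27 to 3.73 with a median of 1.02 in kidney. Lung lay above both other tissues in every library, and liver overlapped with kidney. The log2 fold change was 7.62 (SE 0.24, limma-voom q = 1.2e-52) for lung minus kidney, -4.05 (SE 0.25, q = 4.5e-29) for liver minus lung and 3.57 (SE 0.26, q = 6.3e-24) for liver minus kidney. At about 1 CPM the kidney level of Lyve1 moved with the lung epithelial markers of the same library (r = 0.582, permutation p = 1e-05, q = 0.00053 over 528 correlations, rho = 0.536, r = 0.558 without the 2 strains farthest from the median, n = 47). These lung markers had a summed median of 58.0 TPM in kidney against 84150 in lung, Lyve1 had medians of 1.02 and 262.4 TPM in the same tissues, and the part of lung RNA in the kidney values was not tested.

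**Figure D2:**
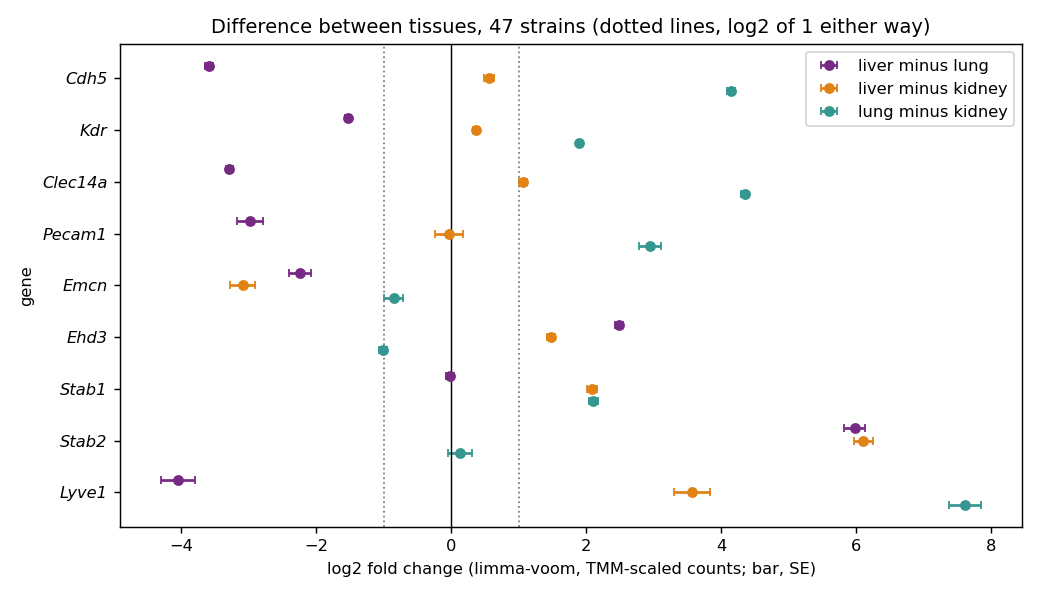
Log2 fold change of the 9 tested genes for each pair of tissues, with the standard error as a bar and dotted lines at a log2 value of 1 in either direction. Stab2 is shifted towards liver against lung and kidney alike, Cdh5, Clec14a and Lyve1 are shifted towards lung, and Stab1 lies at 0 between liver and lung.

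Pecam1 (CD31, a junctional adhesion molecule of endothelium, platelets and leukocytes; chr11:106515531-106611942, - strand), Tek (Tie2, the angiopoietin receptor; chr4:94405980-94541667, + strand) and Emcn (endomucin, a sialomucin of capillary and venous endothelium; chr3:137004031-137095149, + strand) were near the floor of the data. In lung the median count was 36 for Pecam1, 15 for Tek and 9 for Emcn, against 5575 for Cdh5. Pecam1 ran from 0 to 10.26 TPM with a median of 4.15 in lung, from 0 to 0.68 with a median of 0.15 in liver and from 0 to 1.32 with a median of 0.3 in kidney. Tek ran from 0 to 4.1 TPM with a median of 1.19 in lung, and its medians were 0 in liver and 0.16 in kidney. Emcn ran from 0 to 8.17 TPM with a median of 2.25 in lung, from 0.62 to 9.87 with a median of 2.83 in kidney and from 0 to 0.62 with a median of 0 in liver. All 3 are among the best known genes of endothelium, and in lung their medians compared with 513.6 TPM for Cdh5 and 317.2 TPM for Kdr.

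Pecam1 has 4 transcripts named in the files, Tek has 3 and Emcn has 2, while each of the other 7 genes has a single one. The same division ran through the wider data. Of 35 other shared endothelial genes, the 27 with 1 transcript had a median lung level of 141.9 TPM and the 8 with more than 1 had 0.725. Over all genes, 59.5% of the 18311 with 1 transcript had a median lung count over 3, against 45.2% of the 6112 with more than 1, and the latter held between 0.612% and 6.48% of the counts of a lung library. The files were made from uniquely aligned reads against a transcriptome. The GENCODE transcripts of build NCBIM37 were cut into 50-base windows. Of these, 3.05% for Tek, 22.8% for Pecam1 and 51.8% for Emcn occurred in only 1 coding transcript of the gene. The share for Kdr, a well-counted gene, lay between those of Pecam1 and Emcn. It was 59.4% for Stab2 and 89.9% for Stab1, and every window of Cdh5, Clec14a, Ehd3 and Lyve1 was of this kind. Among Pecam1, Tek and Emcn, Emcn had the largest share and the lowest median lung count. The share therefore did not separate the low genes from the well-counted ones. No window of any of the 10 genes occurred in another gene. The gene models the counting used were RefSeq's, which differ from the GENCODE ones, and the part of transcript number in the low levels was not tested. The exons below are shown as examples of coding sequence that some of the coding transcripts of a gene hold and others lack; the transcripts also differ elsewhere. All have a length that is a multiple of 3, and they are written 5′ to 3′ on the gene's strand in lower case, at chr3:137054557-137054670 and chr3:137066948-137066986 for Emcn, chr4:94465818-94465970 for Tek and chr11:106533056-106533112 for Pecam1 in build NCBIM37.
Emcn, longer exon: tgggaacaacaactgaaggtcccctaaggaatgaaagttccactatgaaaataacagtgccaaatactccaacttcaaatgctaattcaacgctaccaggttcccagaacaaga
Emcn, shorter exon: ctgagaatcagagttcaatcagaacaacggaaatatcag
Tek, variable exon: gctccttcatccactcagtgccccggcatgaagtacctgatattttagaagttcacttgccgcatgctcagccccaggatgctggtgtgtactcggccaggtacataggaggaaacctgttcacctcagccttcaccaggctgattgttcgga
Pecam1, variable exon: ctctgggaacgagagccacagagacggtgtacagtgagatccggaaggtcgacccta
The longer exon is in 2 of 3 coding transcripts of Emcn and the shorter one, of 39 bases, in 1 of 3. The Tek exon is in 2 of 3 and the Pecam1 exon, of 57 bases, in 4 of 6.

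With that limit, Pecam1 was higher in lung than in liver by the fit (liver minus lung -2.98, SE 0.19, limma-voom q = 7.1e-28) and than in kidney (lung minus kidney 2.95, SE 0.16, q = 7.4e-33), with 2 lung libraries at a count of 0. These were CC012 and CC036, which also had a Pecam1 count of 0 in liver and kidney, as did 10 of 47 livers and 5 of 47 kidneys in all. Emcn was lower in liver than in kidney (-3.09, SE 0.18, q = 4.7e-30) and lung (-2.24, SE 0.17, q = 7.5e-24), with liver counts between 0 and 4, so the size of these fold changes depends on the small constant added before taking logs. The lung minus kidney difference of Emcn was -0.85 (SE 0.14, q = 3.2e-08) and was not called. Tek did not pass the low-count filter, and without that filter the fit gave -2.77 (SE 0.22, q = 3e-21) for liver minus lung. The 3 lungs with a Tek count of 0 were those of CC039, CC040 and CC041. Their livers and kidneys were also at 0, as were 29 of 47 livers and 10 of 47 kidneys in all. Emcn in lung moved with the share of a library's counts held by genes with more than 1 transcript (r = 0.505, permutation p = 0.00049, q = 0.015 over 30 correlations, rho = 0.345, r = 0.378 without the 2 strains farthest from the median, n = 47). Pecam1 (r = -0.062, permutation q = 0.77, rho = 0.176, r = 0.017 without 2 strains) did not, and Tek did by rank alone (r = 0.143, permutation q = 0.48, rho = 0.453 with q = 0.044, r = 0.131 without 2 strains). In lung Kdr, which has a single transcript, also passed (r = 0.381, permutation q = 0.045, rho = 0.243, r = 0.182 without 2 strains). The genes that passed in the other tissues have a single transcript too. They were Clec14a (r = 0.405, permutation q = 0.045, rho = 0.295, r = 0.121 without 2 strains) and Stab1 (r = 0.385, permutation q = 0.045, rho = 0.407, r = 0.354) in liver, and Lyve1 (r = -0.407, permutation q = 0.045, rho = -0.329, r = -0.293) in kidney. Pecam1, Tek and Emcn did not pass in liver or kidney.

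Within a tissue, neighbouring genes in the order of TPM mostly differed in their mean level (sign-flip permutation test on paired log2(TPM + 0.1), 27 tests). The test asks whether the mean paired difference is 0, and single strains could go the other way. Stab2 lay above Kdr in 33 of 47 livers, with a mean log2 difference of 0.13 (SD 0.37). In liver the order was Ehd3, Stab2, Kdr, Stab1, Cdh5, Clec14a, Lyve1, Pecam1, Emcn and Tek, and neighbouring pairs differed at q = 0.042 or lower. The order of the last 3 is not readable at this depth, since Emcn had at most 3 counts in 46 of 47 livers, Tek in 45 and Pecam1 in 38. In lung it was Cdh5, Clec14a, Kdr, Lyve1, Stab1, Ehd3, Pecam1, Emcn, Stab2 and Tek. There, Clec14a and Kdr (q = 0.12) and Kdr and Lyve1 (q = 0.86) could not be ordered. In kidney Kdr and Ehd3 led, followed by Cdh5, and Stab1 could not be ordered against Clec14a (q = 0.24) nor Lyve1 against Stab2 (q = 0.79). Stab2 thus stood second of 10 in liver and second from the end in lung.

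Whole tissues can differ in how much endothelium they hold, which was not measured, and scaling moves all genes together. Each gene was therefore also set against Cdh5 in the same library. Scaling of the library does not change this ratio except through the 0.1 added to TPM before taking logs, which matters for genes near 0. Ehd3 had a median of 3.20 times the TPM of Cdh5 in liver (range 1.626 to 6.52), falling to 1.754 times in kidney and 0.0478 times in lung. For Stab2 the liver median was 2.557 times Cdh5, and the medians of kidney and lung were 0.0491 and 0.00307. The log2 ratio of Stab2 was higher in liver than in lung by 9.65 (SE 0.14) and that of Ehd3 by 6.07 (SE 0.10), each in 47 of 47 strains. Stab1 stood at 1.54 times Cdh5 in liver, at 0.5325 times in kidney and at 0.126 times in lung. Stab1, whose TMM-scaled liver and lung difference was not called, had a ratio that was higher in liver by a log2 value of 3.57 (SE 0.07) in 47 of 47 strains, a value set by the Cdh5 difference of -3.59 between these tissues. For each of these differences the sign-flip permutation p was 1e-05, the smallest that 100000 draws can give, and q was 1.3e-05 over 27 tests.

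Against Cdh5, Kdr was lower in lung than in liver by a log2 value of 2.04 (SE 0.07) in 47 of 47 strains, while liver minus kidney was -0.18 (SE 0.06, permutation q = 0.0032). Kdr had a median ratio of 2.349 in liver, 2.872 in kidney and 0.5845 in lung, and Clec14a had 0.7173 in liver, 0.5985 in lung and 0.5065 in kidney. The Clec14a differences had log2 values of 0.51 (SE 0.08, permutation q = 1.3e-05, higher in liver in 38 of 47 strains) for liver minus kidney, 0.26 (SE 0.07, permutation q = 0.00094) for liver minus lung and 0.24 (SE 0.08, permutation q = 0.0033) for lung minus kidney. The liver minus lung value took the opposite sign, -0.66, when the mean of 35 other shared endothelial genes replaced Cdh5. The Lyve1 ratio was 0.5421 in lung, 0.3895 in liver and 0.0556 in kidney, so against Cdh5 the excess of Lyve1 in lung over liver was a log2 value of 0.57 (liver minus lung -0.57, SE 0.20, permutation q = 0.0056, lower in liver in 32 of 47 strains).

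**Figure D3:**
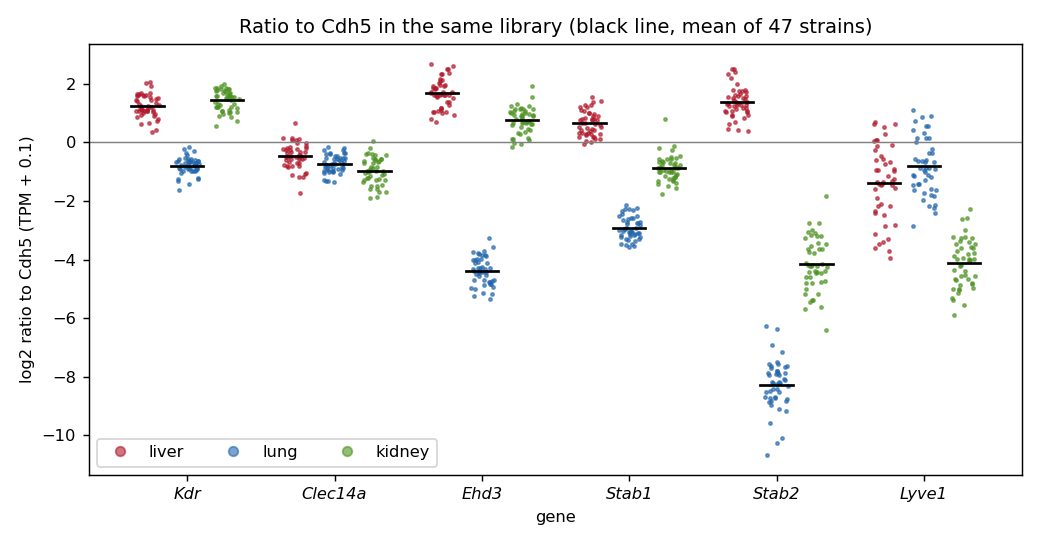
Log2 ratio of 6 genes to Cdh5 in the same library, from TPM plus 0.1, with 1 point per library and a black line at the mean of 47 strains. Ehd3, Stab1 and Stab2 sit far higher in liver than in lung, whereas Clec14a sits close to the same level in all 3 tissues.

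The other genes of these pathways, from lists drawn up for this purpose, were read against the same calls. Over all genes tested, 23.9% were called higher in liver than in lung and 31% higher in lung. Between liver and kidney the shares were 15.6% higher in liver and 20.8% higher in kidney. Between lung and kidney they were 25.5% higher in lung and 20.6% higher in kidney. Of 29 tested genes on the list of shared endothelial genes, 27 were higher in lung than in liver, none was higher in liver and 2 were not called, with a median log2 fold change of -3.29 against -0.06 over all tested genes. Lung exceeded kidney in 27 of 29 as well (median 2.76 against 0.04). Between liver and kidney 3 were higher in liver and 4 in kidney, and 22 were not called. Cd93 averaged 19.2 CPM in liver and 422 in lung, Cldn5, a tight junction claudin, 5.61 and 122, and Vwf, the platelet-binding glycoprotein stored by endothelium, 17.4 and 543.

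Of 14 tested genes on the liver sinusoidal list, 9 were higher in liver than in lung and 2 in lung, and 10 were higher in liver than in kidney and 2 in kidney. The lectin Clec4g averaged 63.8 CPM in liver, 0.874 in lung and 0.0593 in kidney, and Oit3 averaged 45.3, 0.578 and 0.222, a pattern like that of Stab2. Mrc1 (the mannose receptor, carried also by macrophages) averaged 143 CPM in liver and 96.3 in lung with a log2 difference of 0.59 that was not called, and Flt4 (VEGF receptor 3) averaged 43.3 and 49.3 with -0.22, a pattern like that of Stab1. Cd36 and Wnt2 were higher in lung than in liver.

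Of the VEGF and angiopoietin receptors other than Kdr and Tek, 4 of 5 were higher in lung than in liver and 5 of 5 higher in lung than in kidney. The VEGF receptor Flt1 averaged 212 CPM in lung, 59.2 in kidney and 20.7 in liver, and the phosphatase Ptprb, which acts on Tek, averaged 1329, 128 and 311. Only 4 of the 8 ligands were tested. Angpt2, the context-dependent Tek ligand, averaged 19.7 CPM in lung, 14.7 in kidney and 3.67 in liver, and Vegfd averaged 8.44, 0.893 and 0.301. Vegfc, the main ligand of Flt4, averaged 8.02, 2.27 and 4.11.

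Of the 12 tested genes on the list of lung capillary endothelium, 12 were higher in lung than in liver and 11 higher in lung than in kidney. On the kidney endothelial list, which holds other genes of glomerular and renal vessels, 8 of 9 were higher in lung than in liver and 6 of 9 higher in kidney than in liver, with 2 higher in liver. Against each other, 5 of 9 were higher in lung and 1 in kidney. Endothelial transcription factors were higher in lung than in liver in 16 of 17 and than in kidney in 13 of 17. Among 18 scavenger receptors and their endocytic partners, 4 were higher in liver and 9 in lung when those organs were compared. The shares over all genes were 23.9% and 31%, so the count of 4 was near the share of all genes. In the liver and kidney comparison 8 were higher in liver and 6 in kidney, where the shares over all genes were 15.6% and 20.8%.

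Other cell types that carry some of these genes also differed between the tissues. Of 13 tested macrophage markers, 7 were higher in liver than in lung and 3 in lung, and 10 were higher in liver than in kidney. The summed macrophage level had a median of 398.6 TPM in liver (range 119.4 to 1222), 504.5 in lung (100.1 to 1452) and 161.8 in kidney (63.61 to 509.6). The Kupffer cell genes Clec4f and Vsig4 averaged 121 and 29.6 CPM in liver and 0.103 and 0.445 in lung. All 8 tested leukocyte markers and all 4 tested platelet markers were higher in lung than in liver and kidney. Their summed medians were 232.3 TPM for leukocytes and 76.84 TPM for platelets in lung, and 6.42 and 4.46 TPM in liver. Pericyte and smooth muscle markers were higher in lung than in liver in 6 of 7, fibroblast and stellate markers in 4 of 7, and erythroid markers in 1 of 2. The part of these cells in the levels of Stab1, Lyve1 and Pecam1 was not tested.

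The promoters below are shown for a pair of genes that were higher in lung, Kdr and Clec14a, and a pair that were higher in liver, Ehd3 and Stab2. The RefSeq promoter table (build GRCm38.p6) held 7 of the 10 genes, all but Cdh5, Pecam1 and Lyve1. Each sequence is the 250 bases before the start of the gene, 5′ to 3′ on its strand, at chr5:75978456-75978705 (-), chr12:58269259-58269508 (-), chr17:73804591-73804840 (+) and chr10:87007943-87008192 (-). Capitals mark the motifs searched on both strands: AGGAAG, which holds the core bound by ETS factors, AGATAA, bound by GATA factors, and CACCC, bound by Krüppel-like factors.
Kdr: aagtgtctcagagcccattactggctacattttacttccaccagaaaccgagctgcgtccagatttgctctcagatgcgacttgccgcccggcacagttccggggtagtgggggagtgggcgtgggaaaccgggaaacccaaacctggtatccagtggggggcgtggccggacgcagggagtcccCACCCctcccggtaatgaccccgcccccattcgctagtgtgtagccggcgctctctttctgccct
Clec14a: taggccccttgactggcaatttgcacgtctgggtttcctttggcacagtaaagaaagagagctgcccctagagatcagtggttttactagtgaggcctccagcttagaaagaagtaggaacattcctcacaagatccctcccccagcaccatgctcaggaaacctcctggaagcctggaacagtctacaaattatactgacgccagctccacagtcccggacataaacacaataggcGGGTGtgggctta
Ehd3: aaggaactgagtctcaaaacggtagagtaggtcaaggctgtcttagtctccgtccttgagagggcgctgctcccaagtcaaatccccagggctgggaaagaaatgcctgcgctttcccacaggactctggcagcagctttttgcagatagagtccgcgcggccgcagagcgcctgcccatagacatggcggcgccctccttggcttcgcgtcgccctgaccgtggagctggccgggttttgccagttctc
Stab2: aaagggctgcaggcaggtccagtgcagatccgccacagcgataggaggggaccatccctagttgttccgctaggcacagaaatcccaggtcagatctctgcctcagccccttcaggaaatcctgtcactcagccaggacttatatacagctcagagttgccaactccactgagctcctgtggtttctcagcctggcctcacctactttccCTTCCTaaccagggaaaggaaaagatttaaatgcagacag
AGGAAG occurred in 3 of the 7 promoters, those of Emcn, Stab1 and Stab2, against 29.5% of 32851 promoters of the same length. CACCC occurred in 3 of 7, those of Kdr, Tek and Clec14a, against 52.0%, and AGATAA in 0 of 7 against 9.99%. Of the 4 promoters shown, Kdr and Clec14a held CACCC, Stab2 held AGGAAG and Ehd3 held none of the 3 motifs. These counts were not tested against the background.

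Across the 47 strains of a tissue most of the well-counted genes had a smaller SD than the median gene. The SD of log2 CPM of Cdh5 was 0.34 across livers, 0.29 across lungs and 0.33 across kidneys, and that of Kdr was 0.22, 0.24 and 0.18. The median over all tested genes with a median count over 3 was 0.43, 0.37 and 0.39. That set was not matched to these genes in depth, so whether they vary less than genes of like counts was not tested. Counting alone gives Cdh5 an SD of 0.11, 0.02 and 0.10. Between the lowest and the highest strain Kdr differed 2.11-fold in liver, 2.16-fold in lung and 2.04-fold in kidney. Stab2 varied more, with an SD of 0.42 in liver, from 78.1 CPM in CC003 to 364.8 in CC021. In lung and kidney, where its median counts were 34 and 25, the SD of Stab2 was 0.81 and 0.89, of which counting alone gives 0.30 and 0.33.

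Lyve1 varied most of the well-counted genes. In liver it ran from 1.41 CPM in CC035 to 33.9 in CC031, 24-fold, with an SD of log2 CPM of 1.28 of which counting gives 0.27. In lung it ran from 46.2 CPM in CC032 to 659 in CC055, 14.3-fold, with an SD of 0.94 of which counting gives 0.04. The strains that were high in lung were not clearly the strains that were high in liver (r = 0.325, permutation p = 0.027, q = 0.10 over 30 correlations, rho = 0.307, r = 0.291 without the 2 strains farthest from the median, n = 47). In lung Lyve1 was lower in strains with more of the platelet markers (r = -0.500, permutation p = 0.00033, q = 0.0079 over 528 correlations, rho = -0.418, r = -0.446 without the 2 farthest strains) and of the leukocyte markers (r = -0.439, permutation p = 0.0016, q = 0.021, rho = -0.297, r = -0.301 without the 2 farthest strains). The part of blood cells in the spread of Lyve1 was not tested. Of the 8 genes on the lymphatic list Prox1 and Flt4 passed the low-count filter, and Prox1 averaged 106.6 CPM in liver, where hepatocytes express it, against 2.80 in lung.

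To see which genes moved together over strains, each was correlated with an index of the other shared endothelial genes (the mean of standardised log2 CPM over 27 list members in liver, 29 for lung and 28 for kidney). Cdh5 followed the index in lung (r = 0.611, permutation p = 1e-05, q = 0.0003 over 30 correlations, rho = 0.584, r = 0.504 without the 2 strains farthest from the median) and in kidney (r = 0.532, permutation p = 0.00012, q = 0.0018, rho = 0.557, r = 0.521). Of all genes, 1.65% in lung and 0.640% in kidney reached r of 0.5 with the index, and 0.118% in liver. In liver no gene of the 10 did: the highest were Cdh5 (r = 0.458, permutation q = 0.0057, rho = 0.398, r = 0.339 without 2 strains), Clec14a (r = 0.448, permutation q = 0.0057, rho = 0.340, r = 0.433) and Stab1 (r = 0.428, permutation q = 0.0092, rho = 0.408, r = 0.420). Clec14a (r = 0.476, permutation q = 0.0057, rho = 0.443, r = 0.377 without 2 strains) and Stab1 (r = 0.467, permutation q = 0.0057, rho = 0.491, r = 0.552) also passed the q threshold of 0.05 in lung. Ehd3, with r of 0.125, 0.173 and 0.050 in liver, lung and kidney, and Lyve1, with 0.170, 0.237 and -0.214, did not. Cdh5 also moved with the list of endothelial transcription factors in lung (r = 0.797, permutation p = 1e-05, q = 0.00053 over 528 correlations, rho = 0.790, r = 0.776 without 2 strains).

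**Figure D4:**
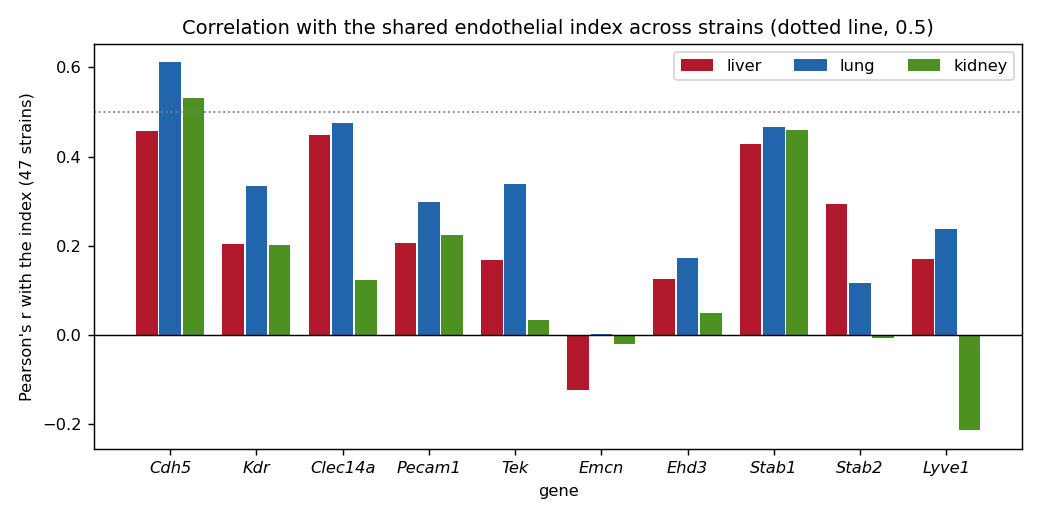
Pearson correlation of each gene with the index of other shared endothelial genes over 47 strains, with 1 bar per tissue and a dotted line at 0.5. Cdh5 in lung (0.611) and in kidney (0.532) reach the line, and Stab1 lies between 0.428 and 0.467 in all 3 tissues.

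Between pairs of the 10 genes no Pearson correlation reached 0.5 and none of the 45 pairs per tissue passed q of 0.05 by Pearson's r over the 3 tissues, against 0.601%, 1.77% and 0.648% of all gene pairs with r of at least 0.5 in liver, lung and kidney. The highest was Kdr with Stab2 in liver (r = 0.482, permutation p = 0.00063, q = 0.085, rho = 0.508 with q = 0.034, r = 0.373 without 2 strains). The median over pairs of genes with a median count over 10 was 0.141 for liver, 0.10 for lung and 0.048 for kidney. Between tissues, where the level in 1 organ of a mouse was set against the level in another, Ehd3 (r = 0.513, permutation p = 0.00015, q = 0.0045 over 30 correlations, rho = 0.545, r = 0.449 without 2 strains) and Cdh5 (r = 0.494, permutation p = 0.00047, q = 0.007, rho = 0.512, r = 0.492) correlated between liver and kidney, as did Stab2 between lung and kidney (r = 0.413, permutation p = 0.0042, q = 0.042, rho = 0.410, r = 0.357). Pecam1 between lung and kidney (r = 0.405, permutation p = 0.0066, q = 0.049, rho = 0.137) rested on 2 strains, without which r was -0.038. Reaching 0.5 between liver and kidney was common among all genes, at 8.79%, with 5.41% for liver and lung and 7.17% for lung and kidney.

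Over the strains of the tissue where each was highest, the genes most like Cdh5 in lung were Cyyr1 (r = 0.800), Tspan18 (0.799) and Maml3 (0.779), out of 11687 searched. Those most like Kdr in lung were Piezo2 (0.765), Vcl (0.710) and Mtx3 (0.703). Stab1 in lung was most like Flt4 (0.676), which shared its pattern over tissues, and Clec14a was most like Epb41l5 (0.604) and Sox7 (0.579). Genes like Stab2 in liver included Hadha (0.537), which encodes a subunit of the mitochondrial trifunctional protein of fatty acid oxidation, and Eif2b1 (0.527). Ehd3 in liver was most like the ribosomal protein genes Rpl10 (0.653) and Rpl37a (0.602). For Lyve1 in lung no gene exceeded Arid2 (0.560). The genes most like Pecam1 in lung, Actg1 (0.703), Pmp22 (0.662) and Lgals9 (0.642), and most like Tek, Osbpl9 (0.787), Erbin (0.699) and Tomm5 (0.678), all have more than 1 named transcript. Those most like Emcn in kidney, Dopey1 (0.575), Wdr3 (0.568) and Slc18a2 (0.563), have 1 each, and Epb41l5 has 2 although Clec14a has 1. These correlations were picked as the highest of many over the same 47 libraries, and are given as a description. The lungs with a count of 0, of CC012 and CC036 for Pecam1 and of CC039, CC040 and CC041 for Tek, were included. Their weight in these r values was not tested.

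The kidney of strain CC020 stood apart. Its Stab1 level was 31.03 TPM, against 3.77 to 18.66 with a median of 10.36 in the other 46 kidneys. In the same library C1qa, C1qb and C1qc, complement genes of macrophages, were the highest of 47, with 142.7 TPM of C1qa against a median of 20.2 in the others, and Mrc1 was at 38.6 TPM against 1.16 to 8.88. The collagens Col1a1, Col1a2 and Col3a1 were also the highest, with Col1a1 at 65.4 TPM against 1.29 to 17.06. The other fibroblast and stellate markers were inside the range of the other kidneys. Dcn was at 6.79 TPM (others up to 7.7) and Lum at 7.36 (up to 9.71). Lrat was at 3.3 (up to 11.06), Pdgfra at 0.27 (up to 0.43) and Reln at 0 (up to 0.1). Of the 15 macrophage markers Itgax and Timd4 were highest there as well, while Mertk was lower than in most kidneys, at 38.04 TPM against a median of 58.5. Clec4f, Vsig4, Marco, Cd163, Cd5l and Siglecf were listed at 0, with medians of at most 0.1 TPM in the other kidneys. The kidney of CC068 also had high C1qa (104.6 TPM), C1qb (89.04), C1qc (103.8) and Adgre1 (59.84), with a Stab1 level of 12.64 TPM, inside the range of the other strains. Cdh5 at 17.83 TPM and Clec14a at 9.77 were close to the medians of 20.1 and 10.1 in the other strains. Emcn at 0.62 TPM, from a count of 1, was the lowest of 47, and Kdr at 29.9 and Ehd3 at 17.3 were the second lowest in TPM. In TMM-scaled CPM Kdr at 57.08 and Ehd3 at 22.03 were the lowest of 47, with the next lowest at 71.46 and 29.88. The part of macrophages and fibroblasts in the Stab1 value of this library was not tested.

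Without CC020, Stab1 in kidney averaged 27.5 ± 5.34 CPM (SD, n = 46) in place of 28.8 ± 10.2 (SD, n = 47), and its correlation with the macrophage markers fell from r = 0.386 (permutation p = 0.011, q = 0.011 over 5 correlations, rho = 0.235) to 0.145 and that with the fibroblast markers from r = 0.591 (permutation p = 0.00043, q = 0.0011, rho = 0.272) to 0.316. Its correlation with the list of scavenger receptors and endocytic partners fell from r = 0.613 (permutation p = 0.00011, q = 0.00055, rho = 0.381) to 0.396. That with the liver sinusoidal list rose from r = 0.452 (permutation p = 0.00094, q = 0.0016, rho = 0.547) to 0.482, and that with the shared endothelial index from r = 0.459 (permutation p = 0.0013, q = 0.0016, rho = 0.629) to 0.594. The liver minus kidney difference of Stab1 stayed at 2.09.

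**Figure D5:**
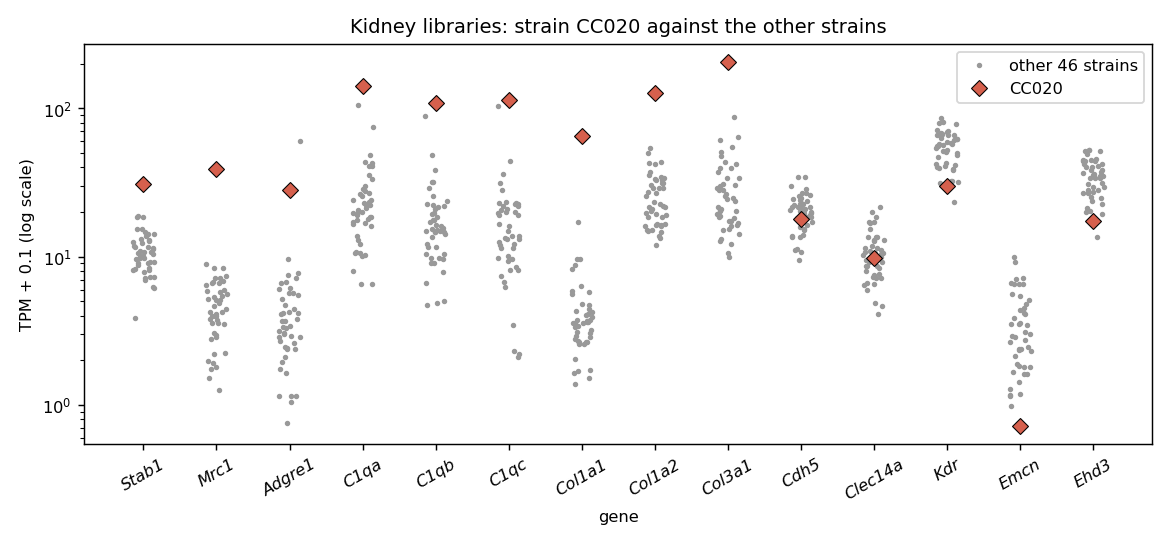
TPM plus 0.1, on a log axis, of 14 genes in the kidney libraries of CC020 (diamonds) and of the other 46 strains (grey points). In CC020 Stab1, Mrc1, the C1q genes and the collagens lie above all other strains, 1 strain is higher in Adgre1, and Cdh5 and Clec14a lie among the other strains.

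Before genetic mapping, genes were kept if TMM-scaled TPM exceeded 1 in more than 50% of a tissue's libraries and if K-means clustering of the values left no cluster of a single library. By this rule all 10 genes passed in lung, 7 in liver (all but Pecam1, Tek and Emcn) and 5 in kidney. Stab1 failed in kidney although all 47 libraries were above 1 TPM, because its smaller cluster held 1 library, and CC020 was the highest. Stab2 and Lyve1 were above 1 TPM in 21 and 23 of 47 kidneys.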

How the data were processed

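RNA was extracted from 141 tissue samples (RNA integrity number of at least 7.0) and sequenced as 50-base single-end reads from ribosome-depleted total RNA. The authors aligned reads with STAR (2.5.3a) and RSEM to strain-specific pseudogenomes (mm9) carrying RefSeq genes, and deposited, per gene, the expected count, the TPM and the FPKM from uniquely aligned reads; FPKM was not used. The deposited expected counts were rounded (25 values were not whole). TMM scaling and limma-voom (edgeR 4.0.16, limma 3.58.1, R 4.3.3) used 12127 genes above 1 CPM in at least 30% of libraries, with tissue and strain as terms. The samples of 1 strain came from the same mouse, which is the basis of the pairing. The authors' models held a term for sequencing batch. A batch term was not used here, since the labels give none, so differences between strains and correlations over strains can also hold batch. Ratios and correlations were tested with 100000 permutations (two-sided, Benjamini-Hochberg), with 0.1 added to TPM or a prior count of 1 to counts. On simulated counts the fit was checked before use. The floors and the spread ascribed to counting cover counting error only. The other SDs and SEs are over strains and also hold differences between mice and libraries. Genes named as alike were among the 3 highest per gene (1 is not reported here), and up to 3 genes per list and tissue pair with the largest called changes could be named. Mrc1, Flt4, Cd36, Wnt2 and the CC020 values were chosen after their values were seen. The genes, lists and motifs were chosen with earlier results of these data known. Sequences came from RefSeq and GENCODE tables.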

Additional observations from a re-analysis of the deposited data

How the results depend on the processing

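Of the values recomputed under the alternatives, 27 no longer passed their threshold and 5 came to pass it. Higher in kidney than in lung was 0 genes in place of 1 (Ehd3) with DESeq2 size factors, total counts, the edgeR quasi-likelihood test, the DESeq2 Wald test, log2(TPM + 1), log2(TPM + 0.1) or without the 4 strains with a shallow library. Higher in liver than in kidney was 3 in place of 5 with total counts and on both TPM scales and 4 with DESeq2 size factors, the DESeq2 Wald test or no low-count filter. Higher in lung than in liver was 7 in place of 6 (Stab1 added) with total counts and on both TPM scales, and higher in liver than in lung was 1 in place of 2 on log2(TPM + 1). Genes with r of at least 0.5 with the endothelial index numbered 2 in place of 1 in kidney (rank-transformed TPM, DESeq2 size factors), 1 in place of 0 in liver (DESeq2 size factors) and 2 in place of 1 in lung (without the 2 farthest strains, without shallow strains). Between liver and kidney the number was 2 in place of 1 with rank-transformed TPM and 0 without the 2 farthest strains.

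Signs turned in 9 values that had passed a threshold or came to pass one. In the ratio to Cdh5, liver minus kidney became 0.17 for Pecam1 and 0.19 for Tek with 1 added to TPM. With Pecam1 as the reference Clec14a became -0.81 (liver minus lung) and Kdr 0.15 (liver minus kidney), and with the mean of the shared endothelial list Clec14a became -0.66, Kdr 0.40, Pecam1 0.26 (liver minus kidney) and Pecam1 0.10 (lung minus kidney). The lung and kidney correlation of Pecam1 became -0.038 without the 2 farthest strains. The cause was not tested. Among fold changes that were not called, liver minus kidney turned from 0.56 to between -0.41 and -0.38 for Cdh5 and from 0.37 to between -0.59 and -0.57 for Kdr with total counts and on the TPM scales, which moved the median of all genes to between -0.95 and -0.72, and from -0.03 to 0.04 for Pecam1 with only these tissues in the fit. Some correlations that did not pass also changed sign.

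Without the strain as a block the pairing of tissues was ignored, and the counts were the same: 2 genes higher in liver and 6 in lung, 5 in liver and 1 in kidney, and 6 in lung and 1 in kidney. Leaving out CC020, chosen after seeing the data, changed no call. Low counts limit Pecam1, Tek and Emcn in every tissue, and Stab2 and Lyve1 in kidney.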
